A study of Arabidopsis thaliana with 39 samples.

Results

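Wild-type Arabidopsis thaliana seedlings given methylglyoxal were compared directly with wild-type seedlings given salt, leaving the untreated seedlings aside. The comparison holds 3 libraries of 200 µM methylglyoxal (MG) for 12 h and 3 libraries of 100 mM NaCl for 12 h, which are 6 of the 36 RNA libraries of the series and were chosen by their labels alone. All were made from 5-day-old seedlings grown on 1/2 strength MS solid medium, and each agent was given at 1 dose and 1 time, so agent and dose cannot be told apart. Wild-type seedlings labelled mock received no treatment, and the contrast does not hold their 3 libraries, whose levels are given for orientation. All 36 RNA libraries were fitted together, however, so mock and the other genotypes enter the filter, the scaling and the estimate of the spread. Every treatment was also given to 3 other genotypes with 3 libraries per group: the glyI2 mutant, and lines labelled 35S::GLYI2 35S::GLYII4 #1 (OE1) and #5 (OE5), named for the constitutive 35S promoter. The series title links the metabolite to gene expression and to a methylglyoxal mark on histones. The contrast of its 2 treatments asks which transcripts answer differently to the metabolite and to salt. The labels do not say whether replicates came from separate cultures, so p-values measure only the spread between these libraries.

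Methylglyoxal is a reactive dicarbonyl that forms as a by-product of glycolysis and modifies proteins, lipids and nucleic acids. Plants remove it mainly through glyoxalase I and glyoxalase II, which use glutathione and end in D-lactate, and through DJ-1 family proteins with glyoxalase III activity, which need no glutathione. Salt imposes an osmotic and an ionic load, raises abscisic acid and with it dehydrins and other protective proteins, and is known to raise methylglyoxal in plant tissue as well.

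Total counts of the 6 libraries lay between 21313666 and 21992957, so that 1 read was worth 0.0361 to 0.0618 CPM, a gene's reads scaled to the size of its library. In a principal component analysis of log2 CPM the first component held 53.5% of the variance and separated the MG libraries (60.6 to 63.0) from the NaCl libraries (-75.0 to -51.0). The second component held 29.2% and set replicate 2 of both treatments (-68.5 for MG, -58.5 for NaCl) apart from the other 4 libraries. Both also had the lowest scaling factors of the 6, at 0.759 and 0.888. Their deviations from the wild-type mean correlated with gene length at -0.31 and -0.28 (Spearman), against -0.02 to 0.40 in the other 4. The part of gene length in this component was not tested. Replicate 3 of NaCl had a low level of CCA1, a clock gene expressed in the morning: log2 CPM was 5.65, 4.24 and 5.89 in the MG libraries and 6.31, 5.18 and 0.78 in the NaCl libraries. LHCB2.2, an antenna protein gene, followed the same pattern, with 2217, 2496 and 1483 CPM in MG and 1203, 1425 and 49.6 CPM in NaCl. Without that library 1734 genes passed the test, against 2430 with it. A fall of this kind was not particular to it. Without replicate 1 of MG 1728 passed, without replicate 3 of MG 1810 and without replicate 1 of NaCl 1873. Leaving out replicate 2 gave 2307 for MG and 2272 for NaCl. Summed CPM of 5 shoot marker genes were 49231, 73082 and 40064 in MG and 29184, 50425 and 20592 in NaCl. Those of 6 root marker genes were 4542, 3721 and 4266 in MG and 4390, 4016 and 3619 in NaCl, so both ranges overlapped. Almost all of the root sum came from PYK10, whose values are given with the root hair genes, so the sum says little about the other root markers. Compared by replicate number, a pairing that is uncertain, the shoot sum was higher in MG for every replicate. The root sum was lower in MG for replicate 2 and higher for replicates 1 and 3. In the main fit 0 of the 5 shoot markers passed, and 1 was higher when libraries were paired by number. Of the 6 root markers 4 were lower and 0 higher in the main fit, and 2 were lower under every setting. Over all genes tested 5.60% were called lower. Whether the share of shoot tissue differed was not tested. Seed storage and pollen markers, included as a check of the labelled tissue, summed to at most 2.06 and 0.264 CPM in any of these libraries.

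Of 20748 genes tested, 2430 (11.7%) differed between MG and NaCl at an adjusted p under 0.05 in edgeR's quasi-likelihood test, which is the test behind every adjusted p given here. In MG 1268 genes (6.11%) were higher and 1162 (5.60%) were lower, and the median log2 fold change over all genes tested was -0.0075. Counts of called members in the lists below are to be read against these shares. Among those called, 1683 (8.11%) differed at least 2-fold, 840 of them higher and 843 lower, and 397 were at least 4-fold higher and 495 at least 4-fold lower. Values of the 3 MG and 3 NaCl libraries did not overlap for 5156 genes (24.9%), among them 2333 of the 2430. A fit on the 6 libraries alone called 1188 genes (650 higher, 538 lower). The main fit has no replicate term. With a replicate block, which pairs same-numbered libraries, 3332 genes were called (1734 higher, 1598 lower). In all, 1003 genes (4.83%) were called in the same direction under all 13 alternative settings. Genes named below as called passed in every alternative unless the text gives the setting in which they failed.

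**Figure D1:**
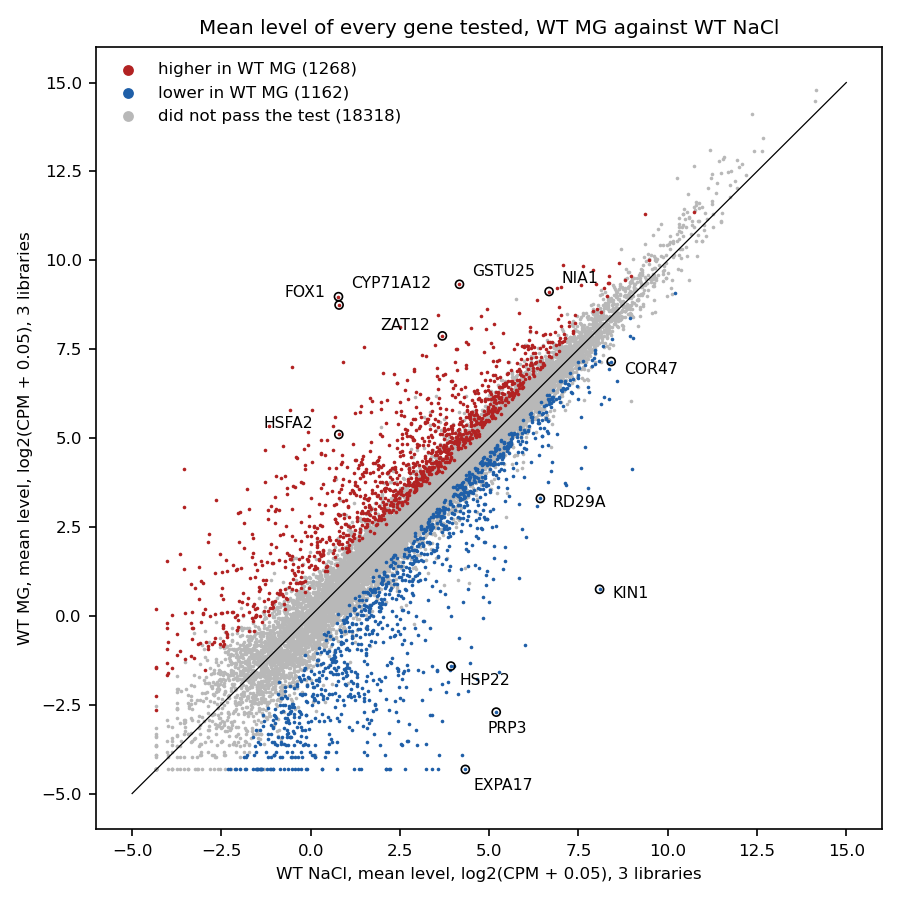
Mean level of each of 20748 genes in the 3 WT MG libraries (vertical axis) against the 3 WT NaCl libraries (horizontal axis), both as log2(CPM + 0.05), with the line of equal levels; red genes were higher and blue genes lower in MG at an adjusted p under 0.05. FOX1 and CYP71A12 lie farthest above the line among the labelled genes, and KIN1, PRP3 and EXPA17 lie farthest below it.

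The untreated level gives each direction a point of orientation. For 910 of the 1268 genes higher in MG (71.8%), the mock mean lay nearer to the NaCl mean than to the MG mean, and for 358 it lay nearer to MG. For the 1162 genes lower in MG, the mock mean lay nearer to NaCl in 644 (55.4%) and nearer to MG in 518. Lists differed in this respect. The mock mean was nearer to NaCl for 19 of the 20 heat shock genes higher in MG, for all 8 of the alternative respiration list and for all 11 stress factors, and for 14 of the 15 root hair genes lower in MG. It was nearer to MG for 12 of the 13 dehydrin and LEA genes lower in MG. These are counts of means on a log2(CPM + 0.05) scale with no test. The plot of gene lists shows 20 of the 42 lists described below. The lists were chosen with earlier results of these data known, so their counts are no independent test.

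**Figure D2:**
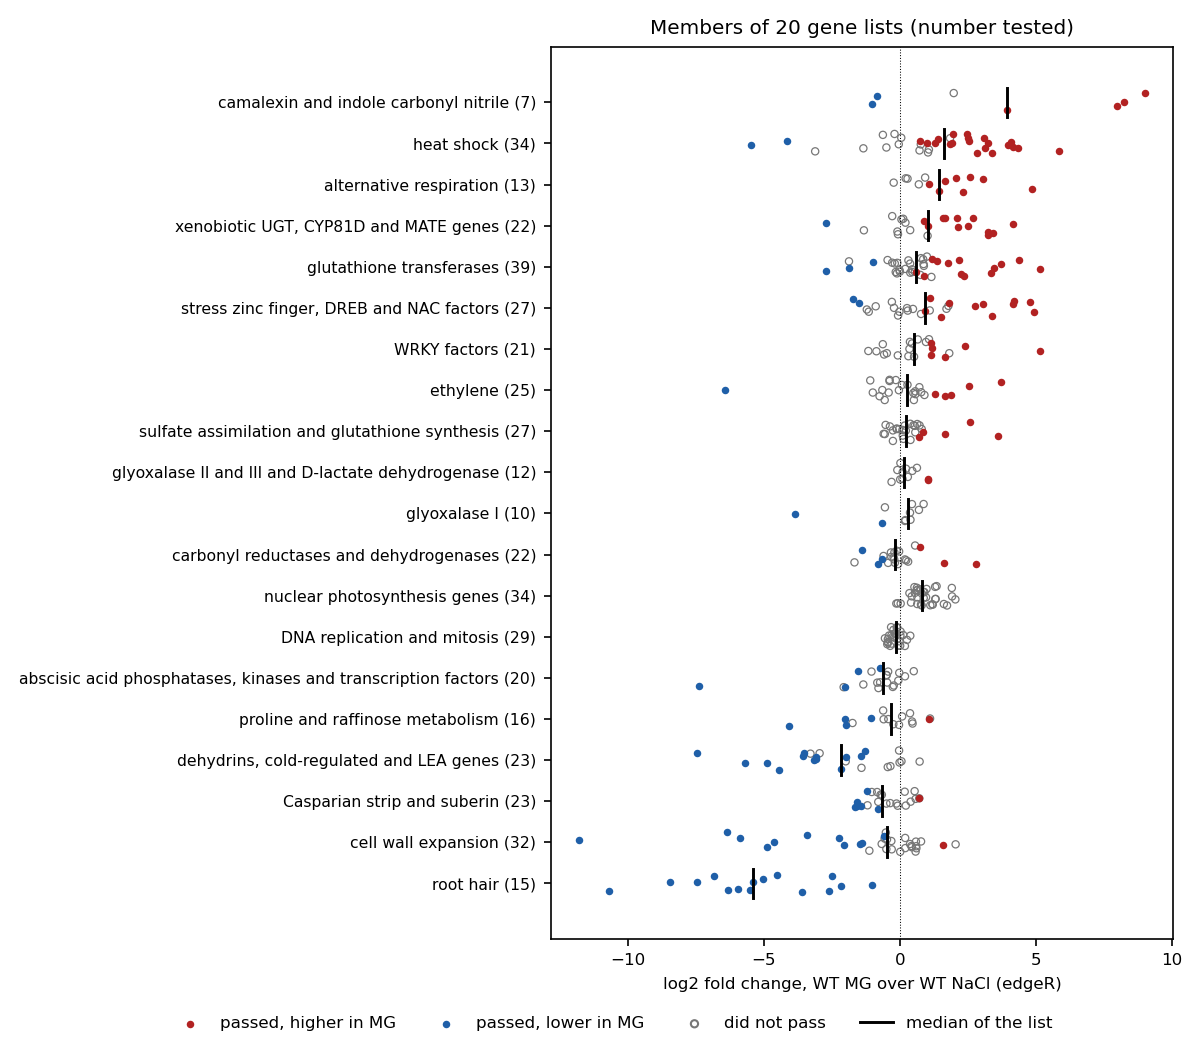
Log2 fold change of each tested member of 20 gene lists, WT MG over WT NaCl, by edgeR; filled points passed at an adjusted p under 0.05, open points did not, and the bar marks the list's median. EXPA17 (cell wall expansion), PRP1 (root hair) and ACS5 (ethylene) had 0 reads in MG, so their fitted position depends on the prior count; all 15 root hair points lie left of 0 and 20 of 34 heat shock points are filled on the right.

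Genes of tryptophan-derived defence metabolism were among those that stood highest in MG over NaCl. Of 7 tested genes for camalexin and indole-3-carbonyl nitrile (indolic defence compounds), 4 were higher and 2 lower (0 lower in the fit on 6 libraries and 1 without replicate 1 of NaCl or replicate 1 or 3 of MG), with a list median log2 fold change of 3.95. CYP71A12, a cytochrome P450 acting on indole-3-acetaldoxime, had 644, 426 and 441 CPM in MG, against 2.48, 1.69 and 0.831 CPM in NaCl and 0.869, 2.17 and 0.549 CPM in mock. Its log2 fold change was 8.24 ± 0.66 (SE, as for every such value), adjusted p = 5.29e-10, and MG stood apart from both other treatments, which overlapped. FOX1 (AT1G26380), a flavin oxidoreductase of the carbonyl nitrile branch, had 445, 386 and 454 CPM in MG and 1.86, 1.90 and 1.30 CPM in NaCl (log2 fold change 7.99 ± 0.53, adjusted p = 2.58e-11). CYP82C2, which hydroxylates the carbonyl nitrile, had 1024 reads in the MG libraries and 2 in the NaCl libraries, a ratio of 611-fold with an exact 95% counting interval of 169 to 5049. PAD3, which completes camalexin, had 106, 91.0 and 98.6 CPM in MG and 6.74, 6.12 and 6.32 CPM in NaCl (log2 fold change 3.95 ± 0.32, adjusted p = 5.29e-10). CYP79B2 and CYP79B3, which feed this branch and the indole glucosinolates from tryptophan, went the other way, with log2 fold changes of -1.01 ± 0.22 and -0.84 ± 0.23. Both lost the call in the fit on 6 libraries (adjusted p = 0.0937 and 0.154). CYP79B3 also lost it without replicate 1 of NaCl (0.0724), replicate 1 of MG (0.0671) or replicate 3 of MG (0.115).

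Genes near FOX1 and others with large log2 fold changes had the same shape. AT1G26390, near FOX1 on the same chromosome, had 128, 137 and 116 CPM in MG and 0.968, 0.896 and 0.0722 CPM in NaCl. AT1G26410, also near it, had 24.9, 24.3 and 26.4 CPM in MG and 0.504, 0.475 and 0.108 CPM in NaCl. Neighbouring copies of this kind can share reads. AT4G16820, a phospholipase A1 gene, had 38.8, 52.3 and 31.4 CPM in MG and 0.194, 0.738 and 0.253 CPM in NaCl (log2 fold change 6.75 ± 0.76, adjusted p = 2.01e-07). CML37, a calmodulin-like protein, had 50.9, 60.7 and 53.1 CPM in MG and 0.891, 0.791 and 1.23 CPM in NaCl (log2 fold change 5.80 ± 0.39, adjusted p = 2.58e-11). AT3G63380 (ACA12), a calcium-pumping ATPase, had 309.8, 316 and 215 CPM in MG and 5.54, 7.01 and 4.26 CPM in NaCl, a log2 fold change of 5.65 ± 0.43. PMZ (SAP12), a zinc finger protein, had 237, 121 and 203 CPM in MG and 3.29, 2.79 and 2.20 CPM in NaCl. ERF71 (HRE2), an ethylene response factor linked to low oxygen, had 11.9, 13.6 and 15.4 CPM in MG and 0.310, 0.369 and 0.397 CPM in NaCl. In these genes the 3 MG libraries lay above all NaCl libraries, and the mock libraries were nearer to NaCl than to MG. Of the indolic glucosinolate genes 3 of 12 were higher and 1 was lower (2 without replicate 2 of MG). CYP81F2 and the methyltransferases IGMT2 and IGMT1, which modify the indole ring, had log2 fold changes of 3.54 ± 0.39, 2.02 ± 0.27 and 1.44 ± 0.33. MYB34, an activator of indolic glucosinolate synthesis, had a log2 fold change of -1.47 ± 0.23, with 19.2, 19.6 and 19.5 CPM in MG and 58.3, 43.4 and 59.6 CPM in NaCl.

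**Figure D3:**
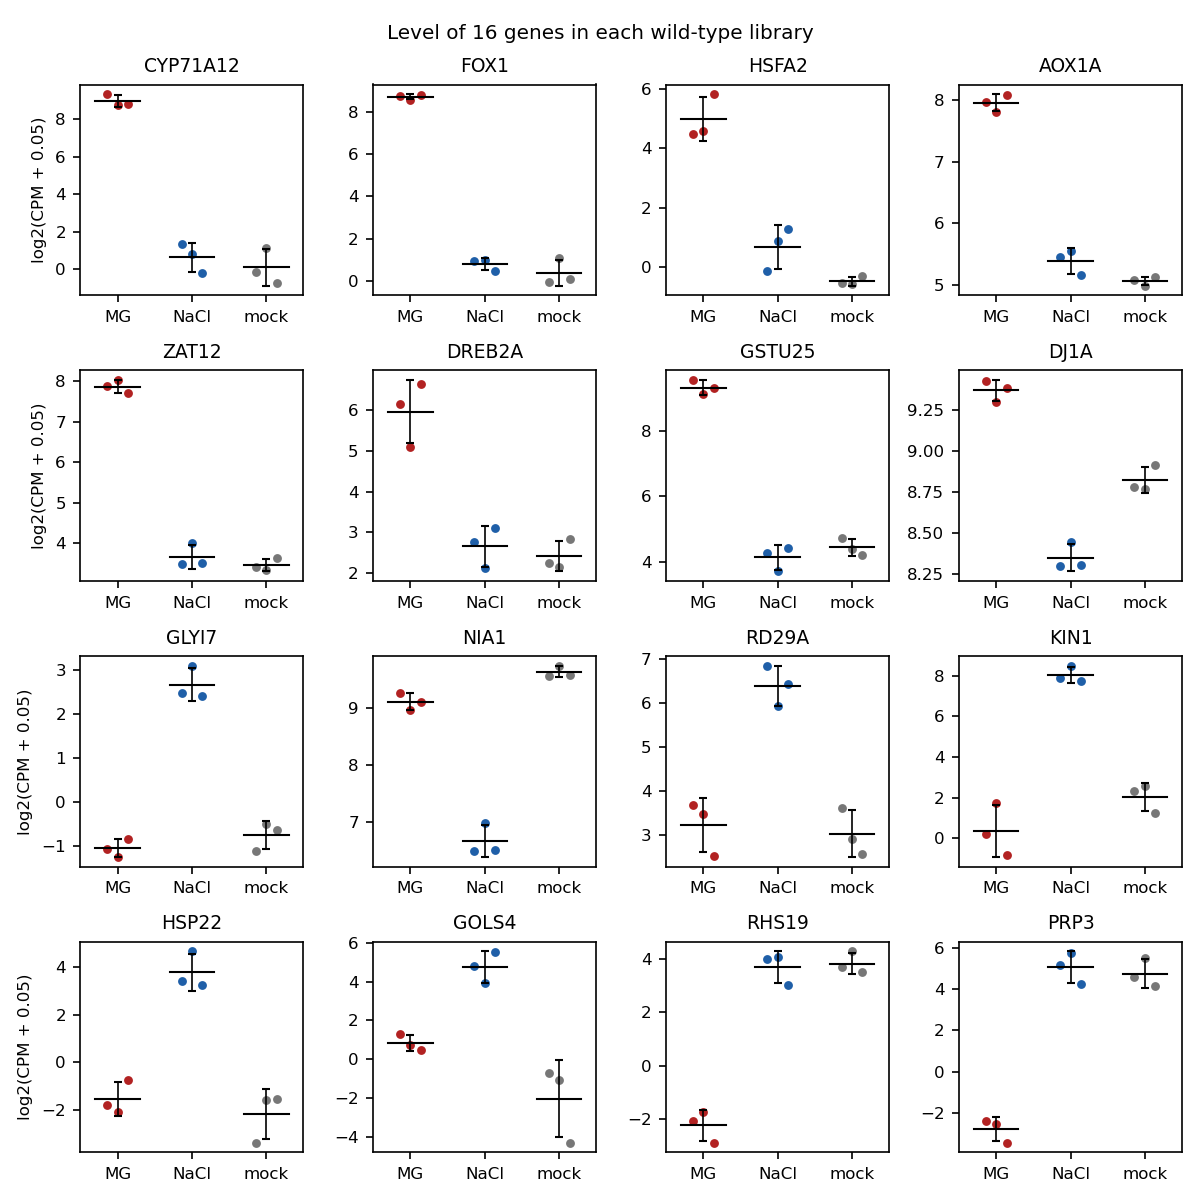
Level of 16 genes in every wild-type library as log2(CPM + 0.05), with MG, NaCl and mock from left to right in each panel; points are libraries, bars are means and whiskers 1 SD (n = 3). From CYP71A12 to DJ1A the MG points lie above NaCl, whereas for GLYI7 and from RD29A to PRP3 they lie below NaCl; axes start at different levels, and NIA1 is lowest in NaCl.

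Heat shock genes were mostly higher in MG, with 20 of 34 tested members higher, 2 lower and a median log2 fold change of 1.61. HSFA2, a heat-inducible transcription factor that sustains chaperone expression, had 22.4, 23.9 and 56.4 CPM in MG and 0.852, 1.79 and 2.38 CPM in NaCl (log2 fold change 4.35 ± 0.61, adjusted p = 7.21e-06). The small heat shock protein HSP17.6A had 48.8, 42.8 and 104 CPM in MG, against 2.94, 6.49 and 2.20 CPM in NaCl (log2 fold change 4.08 ± 0.77, adjusted p = 0.000357). HSP23.6-MITO, a mitochondrial small heat shock protein, had 11.7, 24.8 and 45.1 CPM in MG and 0.0775, 1.48 and 0.0361 CPM in NaCl. In MG, replicate 3 held the highest value of HSFA2, HSP17.6A, HSP101 and HSP23.6-MITO. HSP101, the disaggregase, had 71.2, 69.9 and 189.7 CPM in MG and 12.7, 15.5 and 10.9 CPM in NaCl. MBF1C, a coactivator of the heat response, had 108, 90.7 and 161 CPM in MG and 14.9, 19.6 and 16.3 CPM in NaCl. The members that went the other way were HSP22 and HSFA6B. HSP22, a small heat shock protein of the endoplasmic reticulum, had 0.238, 0.185 and 0.552 CPM in MG, against 10.5, 25.4 and 9.61 CPM in NaCl and 0.0457, 0.283 and 0.295 CPM in mock (log2 fold change -5.46 ± 0.62, adjusted p = 2.27e-07). HSFA6B, a heat stress factor tied to abscisic acid, had 0.238, 0.124 and 0.509 CPM in MG and 6.04, 1.16 and 8.96 CPM in NaCl (log2 fold change -4.13 ± 0.93, adjusted p = 0.00265). The count of higher members fell to 13 without replicate 3 of NaCl and to 13 without replicate 3 of MG, and a replicate block gave 4 lower members. Under every setting 12 higher members and both lower ones passed.

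Stress transcription factors were called mostly higher. Of 27 zinc finger, DREB and NAC factors 11 were higher and 2 lower. ZAT12, a zinc finger regulator of oxidative stress responses, had 236, 260.5 and 207 CPM in MG and 11.1, 16.0 and 11.4 CPM in NaCl (log2 fold change 4.19 ± 0.36, adjusted p = 1.98e-09). DREB2C, which activates heat and drought genes, had 23.1, 14.2 and 28.5 CPM in MG and 0.542, 0.369 and 1.19 CPM in NaCl (log2 fold change 4.92 ± 0.45, adjusted p = 5.42e-09). Its relative DREB2A had 71.4, 34.5 and 99.8 CPM in MG and 6.78, 4.27 and 8.52 CPM in NaCl. ANAC042 and ANAC081, NAC factors of stress and defence, had log2 fold changes of 4.77 ± 0.41 and 3.06 ± 0.30. The lower members were ANAC072 (RD26), an abscisic acid response factor with 18.5, 17.5 and 9.98 CPM in MG and 43.0, 66.0 and 44.1 CPM in NaCl, and AZF1, a zinc finger repressor with 1.62, 1.54 and 1.32 CPM in MG and 5.35, 4.01 and 3.18 CPM in NaCl. Among 21 WRKY factors 6 were higher and 0 lower by edgeR, where 2 were lower at an unadjusted p under 0.05, 1 by DESeq2, 1 with the replicate block and 1 without replicate 2 of NaCl. WRKY51 had 7.51, 6.12 and 8.62 CPM in MG and 0.194, 0.105 and 0.289 CPM in NaCl. WRKY6, a regulator of senescence and phosphate responses, had 105, 72.1 and 98.5 CPM in MG and 46.7, 34.7 and 44.6 CPM in NaCl. Of 25 ethylene genes 5 were higher and 1 lower; the higher count was 3 without replicate 1 or replicate 3 of NaCl, and 2 were lower with the replicate block or without replicate 2 of NaCl. ACS2, which makes the ethylene precursor, had 14.1, 9.45 and 16.9 CPM in MG and 2.25, 1.69 and 2.96 CPM in NaCl (log2 fold change 2.54 ± 0.39, adjusted p = 2.24e-05). The response factor ERF6 had 71.8, 105 and 67.3 CPM in MG and 4.30, 8.12 and 6.25 CPM in NaCl. The lower gene, ACS5, had 0 reads in MG against 34 in NaCl, which makes it at least 9.50-fold lower against a floor of 3 reads over the group; the fit on 6 libraries did not test it.

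Mitochondrial stress genes were higher in MG in 8 of 13 tested members of the alternative respiration list, and 0 were lower by edgeR, by DESeq2 or at an unadjusted p under 0.05. AOX1A, the alternative oxidase that takes electrons from the respiratory chain without pumping protons, had 251, 224 and 272 CPM in MG and 43.7, 47.0 and 35.7 CPM in NaCl (log2 fold change 2.56 ± 0.26, adjusted p = 4.66e-08). Its homologue AOX1D had 17.9, 19.0 and 27.8 CPM in MG and 0.930, 0.475 and 0.758 CPM in NaCl (log2 fold change 4.87 ± 0.55, adjusted p = 1.97e-07). ANAC013, a factor that relays mitochondrial signals to the nucleus, and SOT12, a sulfotransferase, had log2 fold changes of 1.66 ± 0.25 and 1.44 ± 0.21. Of the antioxidant list, to be read against the 11.7% called over all genes tested, 3 of 20 genes were higher and 1 lower. The lower count was 2 with the replicate block or without replicate 1 or 2 of NaCl, and 3 without replicate 2 of MG. The lower one was APX2, a stress-inducible ascorbate peroxidase, with 0.0476, 0.309 and 0.127 CPM in MG and 1.32, 4.48 and 1.66 CPM in NaCl. RBOHD, an NADPH oxidase that makes superoxide, had 89.3, 92.1 and 77.1 CPM in MG and 44.8, 43.3 and 49.3 CPM in NaCl.

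Detoxification lists had more members called higher than lower. Of 39 glutathione transferases 13 were higher and 3 lower, with a median log2 fold change of 0.60. GSTU25 had 749, 551 and 624 CPM in MG and 19.2, 13.1 and 21.5 CPM in NaCl (log2 fold change 5.16 ± 0.36, adjusted p = 5.27e-11). Its neighbour GSTU24 had 453, 345 and 399 CPM in MG and 36.5, 29.2 and 26.3 CPM in NaCl. GSTF7, of the phi class, had 233, 150.4 and 239 CPM in MG and 21.8, 14.3 and 24.8 CPM in NaCl. GSTU26, next to GSTU24 and GSTU25, was lower, with 6.66, 4.20 and 4.84 CPM in MG and 10.7, 8.38 and 11.9 CPM in NaCl (log2 fold change -0.98 ± 0.26, adjusted p = 0.012). Its call failed in the fit on 6 libraries (adjusted p = 0.0798), without the 7 libraries low in CCA1 (0.0524) and without replicate 3 of NaCl (0.0685), replicate 2 of MG (0.0644) or replicate 3 of MG (0.0573). Of 22 xenobiotic glycosyltransferase, CYP81D and transporter genes 12 were higher and 1 lower (2 lower with the replicate block or without replicate 1 of NaCl), with a median of 1.03. CYP81D8, a cytochrome P450, had 155, 191 and 203 CPM in MG and 16.7, 20.5 and 14.2 CPM in NaCl (log2 fold change 3.42 ± 0.35, adjusted p = 3.61e-08). UGT74E2, which glucosylates the auxin indole-3-butyric acid, had 227, 162 and 213 CPM in MG and 18.4, 19.1 and 25.9 CPM in NaCl. CYP81D3 was lower, with 0.238, 0.433 and 0.212 CPM in MG and 2.44, 1.79 and 1.41 CPM in NaCl. UGT73B4 and UGT73B5 overlap in the annotation and were each higher (log2 fold changes 2.67 ± 0.27 and 2.51 ± 0.27); their reads cannot be fully told apart without strand.

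In the 2 glyoxalase lists the genes called lower in MG were glyoxalase I genes, and those called higher were the DJ-1 genes DJ1A and DJ1E. Of 10 glyoxalase I genes 2 were lower and 0 higher, where 11.7% of all genes tested were called in either direction. At an unadjusted p under 0.05 2 were higher, and 1 was higher by DESeq2 and 1 with the replicate block. GLYI7 had 0.428, 0.371 and 0.509 CPM in MG, against 5.54, 8.54 and 5.27 CPM in NaCl and 0.412, 0.660 and 0.591 CPM in mock (log2 fold change -3.85 ± 0.49, adjusted p = 1.34e-06), so that NaCl stood apart and MG was close to the untreated level; GLYI7 overlaps another annotated gene. GLYI3 (AT1G11840, GLX1) had 222, 236 and 203 CPM in MG, against 381, 284 and 383 CPM in NaCl and 244, 223 and 177 CPM in mock, which overlapped MG (log2 fold change -0.67 ± 0.21, adjusted p = 0.0401). This call failed in 9 of 13 alternatives with adjusted p between 0.0554 and 0.163, including the fits without replicate 1 or 3 of NaCl and without any 1 of the 3 MG replicates. GLYI2 (AT1G08110), the gene named in the mutant line, had 61.4, 46.6 and 68.7 CPM in MG and 54.4, 42.9 and 58.0 CPM in NaCl, with overlapping groups and a log2 fold change of 0.19 ± 0.21, adjusted p = 0.681. GLYI6 (AT1G67280), a homologue, did not overlap between groups, at 217, 244 and 194 CPM in MG and 151, 174 and 180.5 CPM in NaCl, but missed the threshold (log2 fold change 0.37 ± 0.13, adjusted p = 0.0682); its adjusted p was 0.0394 with the replicate block and 0.0395 by DESeq2, and 0.0527 to 0.431 in the other alternatives.

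Among 12 genes of glyoxalase II, DJ-1 proteins and D-lactate dehydrogenase, 2 were higher and 0 lower, and no member was lower at an unadjusted p under 0.05 or by DESeq2. This list and the carbonyl list below are to be read against the 6.11% called higher and 5.60% called lower over all genes tested. DJ1A had 687, 630.4 and 668 CPM in MG, against 314, 349 and 316 CPM in NaCl and 439.9, 436 and 481 CPM in mock (log2 fold change 1.02 ± 0.14, adjusted p = 7.01e-06). DJ1E had 134, 160.1 and 110.0 CPM in MG, against 69.7, 69.7 and 58.4 CPM in NaCl and 39.5, 40.8 and 27.3 CPM in mock (log2 fold change 1.03 ± 0.17, adjusted p = 7.75e-05). Both genes were thus about 2-fold higher in MG than in NaCl, while mock lay between the treatments for DJ1A and below both for DJ1E. GLYII4 (AT2G43430, GLX2-1), also named in the transgenic lines, had 12.1, 9.76 and 13.2 CPM in MG and 10.9, 8.33 and 10.7 CPM in NaCl in the wild type, and the groups overlapped. Carbonyl reductases and aldehyde dehydrogenases went both ways, with 3 of 22 higher and 3 lower. The mock mean lay nearer to MG for all 3 lower members and nearer to NaCl for all 3 higher ones. OPR1, an oxophytodienoate reductase-like enzyme, had 999.5, 878 and 927 CPM in MG and 149, 154 and 98.2 CPM in NaCl (log2 fold change 2.80 ± 0.28, adjusted p = 3.61e-08). Its overlapping neighbour OPR2 had a log2 fold change of 1.62 ± 0.19. AKR4C8, an aldo-keto reductase, had 56.3, 49.5 and 48.4 CPM in MG, against 79.9, 95.1 and 94.5 CPM in NaCl and 39.1, 46.0 and 36.1 CPM in mock (log2 fold change -0.81 ± 0.15, adjusted p = 0.000444). ALDH2B7, a mitochondrial aldehyde dehydrogenase, had 13.9, 14.8 and 14.8 CPM in MG and 40.5, 33.2 and 40.2 CPM in NaCl (log2 fold change -1.39 ± 0.19, adjusted p = 6.23e-06).

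Dehydrins, cold-regulated and other late embryogenesis abundant (LEA) genes were lower in MG in 13 of 23 tested members. None was higher by edgeR, by DESeq2 or at an unadjusted p under 0.05. Their median log2 fold change was -2.18, and the list's median level was 4.08 log2 CPM in MG, against 6.61 in NaCl and 2.59 in mock. KIN1, a small cold- and salt-inducible protein, had 1.09, 3.28 and 0.509 CPM in MG, against 235, 365 and 218 CPM in NaCl and 4.90, 5.85 and 2.32 CPM in mock (log2 fold change -7.44 ± 0.85, adjusted p = 2.85e-07). RD29A, a widely used marker of osmotic stress, had 12.7, 11.0 and 5.69 CPM in MG, against 113, 60.3 and 85.3 CPM in NaCl and 12.1, 7.45 and 5.87 CPM in mock (log2 fold change -3.14 ± 0.60, adjusted p = 0.000435). For RD29A the MG and mock libraries overlapped and NaCl stood alone. ERD10, an acidic dehydrin, had 62.8, 45.8 and 36.8 CPM in MG and 204, 144 and 226 CPM in NaCl, and LEA7 had 0.428, 0.371 and 0.0849 CPM in MG and 17.6, 11.6 and 15.7 CPM in NaCl (log2 fold changes -1.98 ± 0.33 and -5.69 ± 1.23). RD29B, COR15A, LEA4-5, KIN2 and LTP4 were called as well, each with its highest MG value in replicate 2. All 5 failed without replicate 1 of MG and without replicate 3 of MG. The adjusted p was 0.157 and 0.143 for RD29B, 0.0869 and 0.0831 for COR15A, 0.0759 and 0.0829 for LEA4-5, 0.122 and 0.119 for KIN2, and 0.142 and 0.124 for LTP4. RD29B also failed without replicate 1 or 2 of NaCl, without a filter and in 24 libraries (0.0542 to 0.0848). COR15A also failed without replicate 3 of NaCl, without the 7 libraries low in CCA1 and in the fit on 6 libraries (0.0511 to 0.0603). KIN2 also failed without replicate 2 of NaCl (0.135) and in the fit on 6 libraries (0.179). LTP4, a lipid transfer protein gene, had 2.09, 48.8 and 0.976 CPM in MG and 272, 897 and 356 CPM in NaCl (log2 fold change -4.89 ± 1.53, adjusted p = 0.0341). It also failed without replicate 2 of NaCl (0.0807), in 24 libraries (0.0559) and in the fit on 6 libraries (0.113). Without replicate 1 of MG 8 members of the list were called, and without replicate 3 of MG 7; the 7 called under every setting were RD29A, KIN1, COR47, ERD10, LEA7, LEA18 and COR413PM1.

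**Figure D4:**
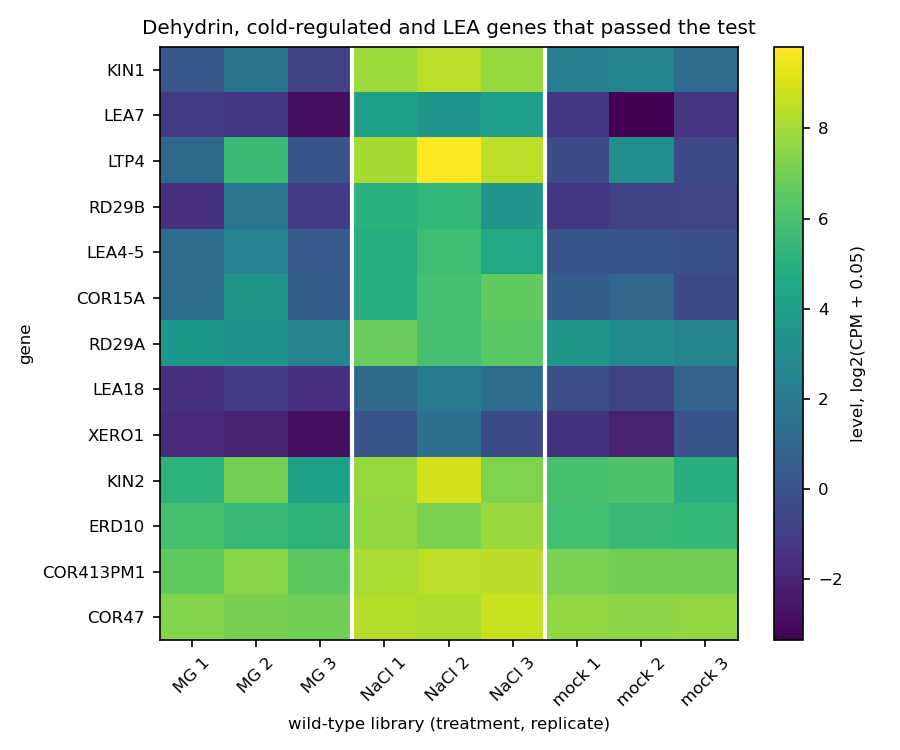
Level of the 13 dehydrin, cold-regulated and LEA genes that were lower in MG, one row per gene and one column per wild-type library, as log2(CPM + 0.05) in colour. The 3 NaCl columns are brighter than the 3 MG columns in every row, and MG replicate 2 is brighter than the other MG libraries for KIN1, LTP4, RD29B, COR15A and KIN2.

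Other lists of the salt and abscisic acid response had fewer calls, to be read against the 11.7% called over all genes tested. Of 20 abscisic acid phosphatases, kinases and transcription factors 4 were lower, and 0 were higher by edgeR, by DESeq2 or at an unadjusted p under 0.05. The lower count was 8 with the replicate block, 2 in the fit on 6 libraries and 7 without replicate 2 of MG. It was 1 without replicate 2 or 3 of NaCl or replicate 1 or 3 of MG. HAI3, a protein phosphatase strongly induced by the hormone, kept its call in all of these, with 2 reads in the MG libraries and 466 in the NaCl libraries, a ratio of 195-fold with a counting interval of 53.8 to 1618. Of 10 receptors 2 were higher, and 0 were lower by edgeR, by DESeq2 or at an unadjusted p under 0.05. PYL6, one of them, had 40.2, 44.4 and 26.5 CPM in MG, against 9.37, 10.1 and 3.47 CPM in NaCl and 37.7, 31.3 and 33.9 CPM in mock (log2 fold change 2.28 ± 0.43, adjusted p = 0.000317), so here too NaCl stood apart. The other was PYL4, whose call failed in the fit on 6 libraries (adjusted p = 0.11), without the 7 libraries low in CCA1 (0.0984) and without replicate 1 of NaCl (0.116), replicate 3 of NaCl (0.127) or replicate 2 of MG (0.136). Of 16 proline and raffinose genes 4 were lower and 1 higher. The higher one failed when any 1 of the 6 libraries was left out, 2 were higher with the replicate block, and without replicate 1 or 3 of MG 2 were lower. GOLS4, a galactinol synthase, had 2.38, 1.61 and 1.32 CPM in MG, against 27.6, 15.1 and 46.5 CPM in NaCl and 0.549, 0.425 and 0 CPM in mock (log2 fold change -4.07 ± 0.64, adjusted p = 3.22e-05). P5CS1, which makes proline, had 71.3, 175 and 44.6 CPM in MG and 343, 399 and 394 CPM in NaCl (log2 fold change -1.97 ± 0.56, adjusted p = 0.0171), a call lost in the fit on 6 libraries (adjusted p = 0.0569), without the 7 libraries low in CCA1 (0.0593) and without replicate 1 of MG (0.0936) or replicate 3 of MG (0.106).

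Mineral nutrition genes had calls in both directions (higher only in the sulfate list), against 11.7% called over all genes tested. Of 14 nitrate genes 1 was higher and 2 lower (1 lower without replicate 1 or 3 of MG). Of 21 sodium, potassium and vacuolar transport genes 2 were higher and 3 lower. The fit on 6 libraries gave 0 higher and 1 lower, leaving out replicate 3 of NaCl or replicate 2 or 3 of MG gave 1 higher, and leaving out replicate 1 of MG gave 1 lower. Of 27 iron and coumarin genes 4 were higher and 2 lower, with 2 higher and 1 lower without replicate 2 or 3 of NaCl, and 1 lower without replicate 1 or 3 of MG. The replicate block gave 8 higher and 4 lower. Of 27 sulfate and glutathione synthesis genes 5 were higher, and 0 were lower by edgeR or DESeq2 (2 at an unadjusted p under 0.05, and 1 without replicate 2 of MG). The higher count was 2 in the fit on 6 libraries and without replicate 3 of NaCl or replicate 1 of MG, and 3 without replicate 2 of NaCl or replicate 3 of MG. NIA1, a nitrate reductase, had 615, 499 and 556 CPM in MG, against 89.4, 126 and 91.1 CPM in NaCl and 764, 864 and 774 CPM in mock (log2 fold change 2.44 ± 0.33, adjusted p = 4.5e-06). NRT2.6, a nitrate transporter, had 0.190, 0.494 and 0.212 CPM in MG and 5.11, 13.9 and 4.91 CPM in NaCl (log2 fold change -4.77 ± 1.03, adjusted p = 0.00164). For NIA1 the NaCl libraries were the low ones, and for NRT2.6 they were the high ones. HAK5, a high-affinity potassium transporter, had 0.0951, 0.124 and 0 CPM in MG and 3.91, 3.06 and 2.17 CPM in NaCl (log2 fold change -5.39 ± 0.95, adjusted p = 0.000151). HKT1, which retrieves sodium from the xylem, had 2.04, 1.48 and 1.61 CPM in MG, against 0.310, 0.580 and 0.939 CPM in NaCl and 3.07, 2.55 and 3.46 CPM in mock (log2 fold change 1.48 ± 0.33, adjusted p = 0.00262), and missed the threshold in the fit on 6 libraries (0.114). F6H1, the enzyme that starts coumarin synthesis, had 218, 156 and 112 CPM in MG and 8.91, 8.01 and 9.21 CPM in NaCl (log2 fold change 4.21 ± 0.32, adjusted p = 1.38e-10). BHLH39, an iron deficiency regulator, had 45.4, 68.2 and 42.5 CPM in MG and 3.49, 3.11 and 0.361 CPM in NaCl. LSU1, a sulfur deficiency gene, had 282, 299 and 247 CPM in MG, against 24.9, 30.8 and 11.8 CPM in NaCl and 4.67, 9.44 and 4.68 CPM in mock (log2 fold change 3.62 ± 0.68, adjusted p = 0.000345). SERAT2;1, which provides the carbon precursor of cysteine, had 217, 211 and 221 CPM in MG and 64.8, 76.3 and 65.4 CPM in NaCl. IRT2, an iron transporter of the root, had 2 reads in MG and 106 in NaCl, a ratio of 44.4-fold with a counting interval of 12.0 to 372.

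Root hair genes had the lowest median of all lists. This list too was chosen with earlier results of these data known, so its counts are no independent test. All 15 tested members were lower in MG, 12 of them under every setting, with a median log2 fold change of -5.39 (also -5.39 with PRP1 at the bound its 0 reads allow) against -0.0075 for all genes tested. The list's median level was -1.97 log2 CPM in MG, against 3.24 in NaCl and 2.24 in mock. PRP3, a proline-rich wall protein of root hairs, had 0.143, 0.124 and 0.0425 CPM in MG, against 36.2, 54.5 and 19.2 CPM in NaCl and 24.1, 45.7 and 17.8 CPM in mock (log2 fold change -8.45 ± 0.88, adjusted p = 1.14e-07). RHS19, a peroxidase of root hair cells, had 0.190, 0.247 and 0.0849 CPM in MG, against 15.9, 17.0 and 8.13 CPM in NaCl and 12.9, 19.5 and 11.4 CPM in mock (log2 fold change -6.31 ± 0.56, adjusted p = 3.75e-09). PRP1 had 0 reads in MG against 671 in NaCl, at least 188-fold lower against the floor of 3 reads. For PRP3 and RHS19 the NaCl and mock libraries overlapped, and MG stood apart. RHD6, which starts root hair fate, had 0.333, 0.185 and 0.297 CPM in MG and 1.74, 1.27 and 1.73 CPM in NaCl (log2 fold change -2.50 ± 0.41, adjusted p = 7.14e-05). RSL4, which sets hair length, had 0.0476, 0.124 and 0.0849 CPM in MG and 1.63, 0.475 and 1.01 CPM in NaCl (log2 fold change -3.58 ± 0.76, adjusted p = 0.00151). RSL2, its close relative, had 1 read in MG and 74 in NaCl, a ratio of 62.1-fold with a counting interval of 10.8 to 2484. RSL4 in MG was at 1 or 2 reads a library, and the fit on 6 libraries did not test it. In whole seedlings fewer cells of a type and less RNA per cell cannot be told apart. Of the 4 root markers called lower, EXPA7, PRP3 and PIN2 had log2 fold changes of -5.02 ± 0.72, -8.45 ± 0.88 and -1.46 ± 0.42. PIN2, an auxin exporter of the root tip, lost the call without replicate 1 of NaCl (adjusted p = 0.0556), replicate 2 of NaCl (0.0775), replicate 1 of MG (0.0655) or replicate 3 of MG (0.107). PYK10, an abundant glucosidase of the root, was at 4523, 3700.3 and 4249 CPM in MG and 4304, 3897 and 3561 CPM in NaCl. The part of these markers in the result was not tested.

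In the cell wall expansion list 11 of 32 genes were lower and 1 higher, and 7 were lower without replicate 1 of MG. Under the replicate block 2 were higher. EXPA17, an expansin, had 0 reads in MG against 1403 in NaCl, at least 392-fold lower. EXPA10, an expansin of leaves, had 63.9, 98.6 and 50.0 CPM in MG, against 215, 436 and 239 CPM in NaCl and 64.3, 64.1 and 57.9 CPM in mock (log2 fold change -2.07 ± 0.30, adjusted p = 1.14e-05), so NaCl was the treatment that stood apart. XTH14, a xyloglucan-remodelling enzyme, had 2.14, 4.20 and 1.06 CPM in MG, against 26.8, 37.9 and 13.3 CPM in NaCl and 22.4, 32.4 and 23.5 CPM in mock, where MG stood apart. Of 23 Casparian strip and suberin genes 6 were lower and 1 higher. The higher one failed in 9 settings, and the lower count was 2 without replicate 3 of NaCl or replicate 1 of MG and 3 without replicate 2 or 3 of MG. PER64 and CASP4, which build the Casparian strip, passed throughout with log2 fold changes of -1.57 ± 0.37 and -1.64 ± 0.40. Some other genes were named for the size of their decrease. HRGP1, a hydroxyproline-rich glycoprotein, had 0.333, 0.433 and 0.0849 CPM in MG and 38.7, 57.4 and 20.9 CPM in NaCl (log2 fold change -7.15 ± 0.76, adjusted p = 9.16e-08). AGP30, an arabinogalactan protein of the root, had 0.285, 0.680 and 0.594 CPM in MG and 64.0, 95.8 and 34.1 CPM in NaCl (log2 fold change -6.96 ± 0.87, adjusted p = 1.04e-06). The extensin EXT10 had 0.143, 0.309 and 0.0849 CPM in MG and 19.8, 36.7 and 7.55 CPM in NaCl. NADP-ME1, a malic enzyme, had 0.238, 0.494 and 0.255 CPM in MG and 15.3, 13.8 and 18.9 CPM in NaCl. Likewise CWINV5, an invertase relative, had 0.0951, 1.17 and 0.212 CPM in MG and 16.2, 33.2 and 18.5 CPM in NaCl. For NADP-ME1 and CWINV5 mock was near the MG level.

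Of 34 nuclear photosynthesis genes none passed in the fit over all groups or by DESeq2, and 5 were higher at an unadjusted p under 0.05. With the replicate block 2 were higher, as were 2 without replicate 2 of NaCl. Their median log2 fold change was 0.83 and their median level 12.3 log2 CPM in MG, against 10.9 in NaCl and 12.0 in mock. The library with low CCA1 had a median of 9.29 log2 CPM for this list, against 11.0 and 11.8 in the other NaCl libraries, and with it and 6 like libraries of other groups left out 1 member was higher; the part of that library in the list's median was not tested. Of 29 DNA replication and mitosis genes and of 21 flavonoid and anthocyanin genes none passed by edgeR, by DESeq2 or at an unadjusted p under 0.05. Of 14 genes for histone H3 lysine 4 methylation none passed by edgeR or DESeq2 and 1 was higher at an unadjusted p under 0.05. The remaining lists are to be read against the 11.7% called over all genes tested. Of 27 jasmonate genes 1 was higher and 2 lower. The lower count was 6 with the replicate block or without replicate 2 of MG, 1 without replicate 1 or 3 of MG, and 0 in the fit on 6 libraries or without replicate 3 of NaCl. Of 31 auxin genes 3 were higher and 2 lower (1 lower without replicate 1 or 2 of NaCl or replicate 1 or 3 of MG). Of 16 salicylic acid genes 1 was higher and 3 lower. The fit on 6 libraries gave 0 higher and 1 lower, the replicate block 3 higher, leaving out replicate 2 of NaCl 3 higher, and leaving out replicate 3 of MG 2 higher and 1 lower. Of 15 unfolded protein response genes 2 were higher and 2 lower. The higher count was 1 without replicate 1 or 3 of NaCl or replicate 2 of MG, and the lower count was 1 without replicate 1 of NaCl or of MG. Single genes were higher in the phosphate (1 of 21), clock (1 of 20) and starvation (1 of 13) lists, with 1 clock gene and 1 starvation gene also lower under the replicate block, and single genes were lower in the aquaporin (1 of 19, and 3 with the replicate block), abscisic acid synthesis (1 of 10) and aliphatic glucosinolate (1 of 19) lists. Under every setting 1 higher jasmonate gene, 2 higher and 1 lower auxin genes, 1 lower salicylic acid gene, 1 higher and 1 lower unfolded protein response genes and the aquaporin and abscisic acid synthesis genes passed. CYP94B3, which oxidises the active jasmonate, had 106, 109.6 and 88.0 CPM in MG and 9.80, 10.7 and 15.4 CPM in NaCl (log2 fold change 3.08 ± 0.39, adjusted p = 1.26e-06). BRU6 and GH3.3, which conjugate auxin, had log2 fold changes of 1.55 ± 0.29 and 1.58 ± 0.35. YUC3, an auxin synthesis gene, had 0.190, 0.124 and 0.0425 CPM in MG and 1.70, 1.21 and 1.73 CPM in NaCl. DMR6, a salicylic acid hydroxylase, had 5.85, 6.74 and 7.81 CPM in MG and 20.5, 14.6 and 17.6 CPM in NaCl (log2 fold change -1.37 ± 0.21, adjusted p = 2.46e-05).

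The same contrast in the other genotypes used libraries that the wild-type contrast does not contain. Replicate 3 of NaCl was low in CCA1 in every genotype, however. Its log2 CPM was 0.78 in the wild type, 1.08 in glyI2, 0.14 in OE1 and 0.44 in OE5, and no MG library was below 4.24. All these contrasts thus hold such a library on the NaCl side, and its part in the overlaps given here was not tested. GLYI2 lay between 42.9 and 70.6 CPM over the 9 wild-type libraries, against 4.56 to 9.47 CPM in the glyI2 mutant, 20.4 to 34.9 CPM in OE1 and 39.4 to 61.1 CPM in OE5. GLYII4 lay between 8.33 and 13.2 CPM in the wild type, against 22.2 to 381 CPM in OE1 and 25.5 to 346 CPM in OE5, so the libraries labelled OE1 and OE5 carried more GLYII4 but not more GLYI2 transcript. The glyI2 contrast called 6501 genes (31.3%). The OE1 contrast called 2621 (12.6%), with 1442 (6.95%) higher and 1179 (5.68%) lower, and the OE5 contrast called 2140 (10.3%), with 1074 (5.18%) higher and 1066 (5.14%) lower. Of the 2430 wild-type genes, 1821 were called in the same direction in glyI2 (74.9% of the wild-type list, 28.0% of the glyI2 list), 1907 in OE1 (78.5% and 72.8%) and 1701 in OE5 (70.0% and 79.5%). Genes called in the opposite direction numbered 35 in glyI2, 0 in OE1 and 1 in OE5. Across all genes tested, which are not independent replicates, Pearson's r of the log2 fold changes was 0.69 for the wild type with glyI2, 0.89 with OE1 and 0.90 with OE5. In all 4 genotypes 1301 genes were called in the same direction, 636 higher and 665 lower, and 169 passed the threshold in the wild type and in none of the others, which is no test of a difference. All 15 root hair genes were lower in each genotype, in a list chosen with earlier results of these data known. KIN1 had a log2 fold change of -7.44 in the wild type, against -6.73 in glyI2, -5.25 in OE1 and -6.87 in OE5. CYP71A12 had 8.24 in the wild type, against 5.27 in glyI2, 7.86 in OE1 and 7.61 in OE5.

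**Figure D5:**
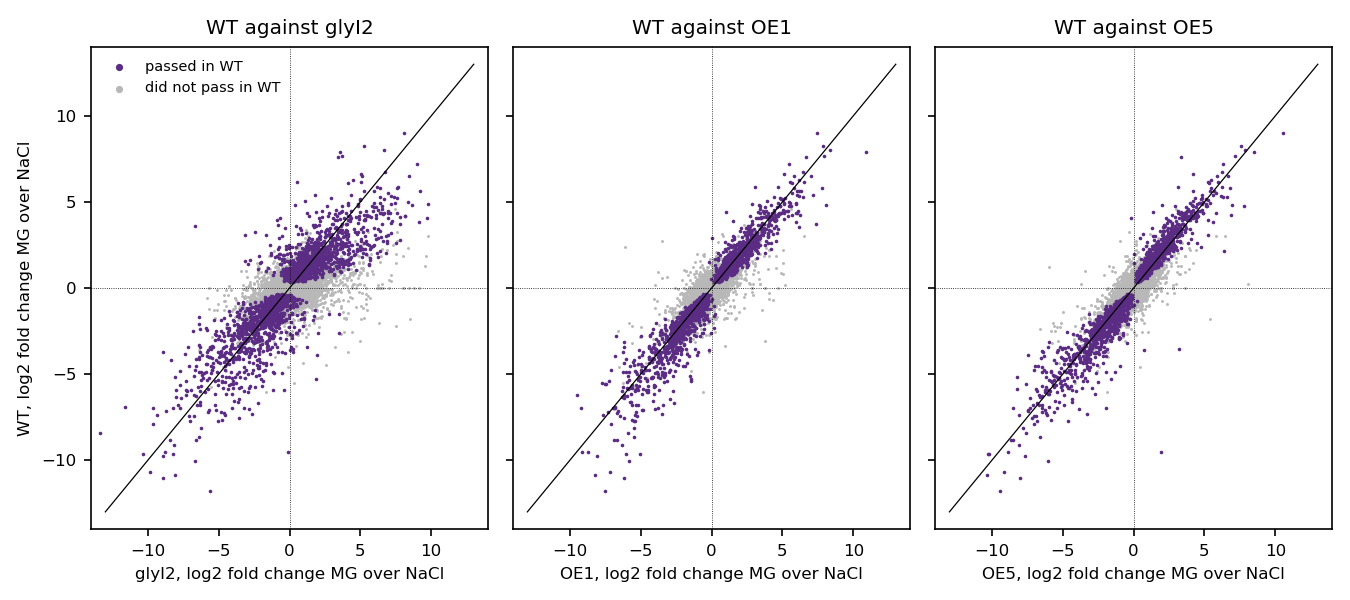
Log2 fold change of MG over NaCl in the wild type (vertical axes) against glyI2, OE1 and OE5 (horizontal axes, left to right) for 20748 genes, with the line of equal change; purple genes passed in the wild type. Of the 2430 purple genes 2264 have the same sign in glyI2, 2423 in OE1 and 2424 in OE5.

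A direct test of the difference, the wild-type log2 fold change minus the mean of the other 3 genotypes, called 5 genes (0.0241%), all lower, and 601 genes (2.90%) at an unadjusted p under 0.05. None of the genes described above from the wild-type contrast passed this test except GLYII4. The test takes the mean of 3 genotypes, so a difference from glyI2 alone is diluted. The wild type was not tested against glyI2 alone, so few calls here do not show that the 2 respond alike. Calls ranged from 0 to 34 over the alternatives, with 20 under the replicate block. CYP94B3 had a log2 fold change of 3.08 in the wild type, against -1.68 in glyI2, 3.50 in OE1 and 3.27 in OE5, but its difference from the mean of the other genotypes missed the threshold (adjusted p = 0.639).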

How the data were processed

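Messenger RNA of wild-type seedlings was sequenced after oligo(dT) selection on a BGISEQ-500, per the labels' protocols. The deposited tables give, for each of 32678 genes and each library, a read count and an FPKM value made by the authors; HISAT2 2.0.4, HTSeq and TAIR10 are named in the submitters' processing notes, and no source used here gives strandedness. The deposited counts were used for every test, and the deposited FPKM only to derive gene lengths. Chromatin samples were not analysed here, and 279 organelle genes stood at 0 in every library.

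Counts were tested in R 4.3.3 with the quasi-likelihood test of edgeR 4.0.16 (limma 3.58.1), with TMM scaling, filterByExpr and robust estimation, over 36 libraries in 12 groups, so the 12 mock libraries enter the filter, the scaling and the estimate of the spread (20536 genes are tested without them); p-values were adjusted by Benjamini-Hochberg over the 20748 genes tested. The biological coefficient of variation was 28.3%. CPM use TMM-scaled library sizes. Alternatives were DESeq2 1.42.0, RLE scaling, no filter, 24 NaCl and MG libraries, the compared groups only, a replicate block, each library left out, and 7 libraries of low CCA1 left out. The procedure was tested on simulated data. Among the 9 wild-type libraries chi-square per degree of freedom between replicates was at least 15.0, so none was counted as a duplicate; other genotypes were not checked.

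Replicate numbers were taken to pair libraries in the replicate block alone, and the main fit had no replicate term. The basis was that deviations from the group means of same-numbered MG and NaCl libraries correlated at 0.44, 0.67 and 0.31 over genes, each over 0.1. Replicate 3 of MG with replicate 1 of NaCl correlated at 0.49, above 2 of these, so the pairing is uncertain. Names came from a RefSeq gene table, in which 31912 genes matched. Members and the 42 lists (38 pathway, 4 marker) were chosen with earlier results of these data known. The rule for named genes took up to 15 genes of each direction by size and up to 4 members of each list, and gave 200 genes; other members named were chosen after their values were seen. Counting intervals (95%, exact) and floors cover counting error only. Genes that overlap another annotated gene, among those named GLYI7, ALDH2B7, OPR1, OPR2, UGT73B4, UGT73B5, HSP101, MBF1C, LEA7, P5CS1, GOLS4, F6H1, SERAT2;1, ANAC013, DREB2A, ANAC042, ANAC081, RHS19, PER64, PYK10, EXT10 and CWINV5, and near-identical copies (KIN1 and KIN2, CYP71A12 and CYP71A13, LTP3 and LTP4) are uncertain, since their reads may be shared. One marker gene is not reported here.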

Additional observations from a re-analysis of the deposited data

Results flagged for a closer look

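The response of 5 genes to MG over NaCl differed between the wild type and the mean of the other genotypes, by edgeR's test of that difference. GLYII4 differed by -1.98 on the log2 scale (adjusted p = 0.0045). Its MG libraries had 12.1, 9.76 and 13.2 CPM in the wild type, 234, 285 and 381 CPM in OE1 and 283, 167 and 346 CPM in OE5, against NaCl values of 10.9, 8.33 and 10.7 CPM in the wild type, 22.2, 23.9 and 36.3 CPM in OE1 and 41.2, 27.6 and 33.2 CPM in OE5. In the libraries labelled OE1 and OE5 GLYII4 transcript was higher under MG than under NaCl.

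For the other 4 genes glyI2 stood apart from the rest. AT4G12735 differed by -2.76 (adjusted p = 0.0277), with 6.23, 6.06 and 5.01 CPM in wild-type MG libraries, against 177, 139.6 and 128 CPM in glyI2 MG libraries. AT2G20720, which overlaps another annotated gene, differed by -1.48 (adjusted p = 0.0281), with 2.28, 1.85 and 2.16 CPM in wild-type MG libraries, against 24.8, 27.7 and 21.5 CPM in glyI2 MG libraries. AT1G66500 differed by -1.17 (adjusted p = 0.0325), with 11.2, 7.97 and 8.07 CPM in wild-type MG libraries, against 48.4, 31.8 and 47.6 CPM in glyI2 MG libraries. AT1G07520 differed by -1.01 (adjusted p = 0.0208), with 7.28, 5.13 and 6.24 CPM in wild-type MG libraries, against 42.4, 43.4 and 38.1 CPM in glyI2 MG libraries.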

How the results depend on the processing

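The wild-type count of 2430 lay within 1.5 times under DESeq2 (2800), RLE scaling (2365), no filter (2239), 24 libraries (2336) and without the 7 libraries of low CCA1 (2347, of which 1963 shared), and was 1188 in the compared groups only, a fit with fewer samples; the OE5 count was 1010 there. With the replicate block, which pairs same-numbered libraries, it was 3332. Leaving out 1 library gave 1728 to 2307 in the wild type, 4995 to 6921 in glyI2, 1565 to 2125 in OE1 (1565 without replicate 3 of MG) and 1339 to 2041 in OE5 (1339 without replicate 3 of MG). The difference between genotypes called 34 genes by DESeq2, 20 with the replicate block, 2 without a filter, 3 without the 7 libraries, and 0 in 24 libraries or the compared groups only (619 at an unadjusted p under 0.05 in each), and 0 to 6 without 1 library (0 without replicate 2 of MG, with 543 at an unadjusted p under 0.05); the cause was not tested. Of the values of named genes under alternatives 2413 kept direction and side of the threshold, 140 lost the call, 45 gained it and 0 changed sign. Of list counts 912 stayed within 1.5 times and 180 did not. Genes at a few reads are limited by depth, since 1 read was worth 0.0361 to 0.0618 CPM.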
